A study of Mus musculus with 28 samples.

Results

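Collagen genes encode the chains of the proteins that give connective tissue its strength. The genes described here are the rows of both deposited count matrices whose symbol has the form Col, a number, the letter a and a number, apart from a gene that is not reported here. Of 55341 rows, 43 matched, and the 40 with at least 10 counts in at least 1 tumor were kept. They comprised 10 fibrillar collagen genes, 7 of basement membranes and 23 of other types. Col2a1, Col4a6 and Col19a1 stayed under 10 counts in every tumor and were left out.

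RNA was sequenced from 28 whole flank tumors of AB1-HA, a mouse mesothelioma cell line that carries influenza hemagglutinin, each from a different BALB/c.AusBP mouse. There were 4 PBS control tumors, 5 ICB tumors, 5 treated with 5-FU, 4 treated with cisplatin, 5 treated with 5-FU+ICB and 5 treated with cisplatin+ICB. Immune checkpoint blockade (ICB) was 1 dose of anti-CTLA-4 and 3 doses of anti-PD-L1 at 100 µg each, the antimetabolite 5-fluorouracil (5-FU) was given at 75 mg/kg into a vein and the DNA-crosslinking drug cisplatin at 6 mg/kg into the peritoneum, and tumors were taken on day 7. The mice were female and 8 to 10 weeks old. A subcutaneous tumor of 1 cell line lies next to skin, fat and muscle, and its RNA holds host cells as well as tumor cells. Fewer cells of a type and less RNA per cell cannot be told apart in such samples.

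Fibrillar collagens (types I, III, V and XI among them) assemble into the rope-like fibers of the stroma. Type IV collagen forms the sheet of the basement membrane under epithelium and around vessels, with types XV and XVIII at its stromal face. Type VI collagen makes beaded filaments that link fibers to cells, and the fibril-associated collagens (FACITs, such as types XII and XIV) coat fibers without forming any themselves. Most stromal collagen is made by fibroblasts, which also supply the enzymes that fold, trim and crosslink the chains, and type IV is made by endothelial, mural and epithelial cells as well.

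The members are scattered over the genome, with a few arranged in pairs and clusters (GRCm38, GENCODE M21). Col4a1 (chr8:11198423-11312826, minus strand) and Col4a2 (chr8:11312805-11449287, plus strand) lie head to head, and their gene models share 22 bases. Col4a4 and Col4a3 on chromosome 1 do so too, with 71 bases between them. Col6a6 (chr9:105687809-105828160), Col6a5 (chr9:105856078-105960643) and Col6a4 (chr9:105989454-106096783) follow each other on the minus strand of chromosome 9, apart from Col6a1 and Col6a2 on chromosome 10. RefSeq start sites (GRCm38.p6), which for Col15a1 lie upstream of the GENCODE start at 47208161, were given for 34 of the 43 symbols. The 250 bases before the start are shown for 4 genes whose window held no annotated exon: Col3a1, the collagen gene with the highest level (chr1:45311288-45311537, plus strand), and 3 genes that were called in several comparisons, Col15a1 (chr4:47207762-47208011, plus strand), Col28a1 (chr6:8192618-8192867, minus strand) and Col6a5 (chr9:105960644-105960893, minus strand). Each reads 5′ to 3′ along its gene's strand, and capitals mark the TATA motif (TATAAA), the CAAT box (CCAAT) or the GC box (GGGCGG) on either strand.
Col3a1: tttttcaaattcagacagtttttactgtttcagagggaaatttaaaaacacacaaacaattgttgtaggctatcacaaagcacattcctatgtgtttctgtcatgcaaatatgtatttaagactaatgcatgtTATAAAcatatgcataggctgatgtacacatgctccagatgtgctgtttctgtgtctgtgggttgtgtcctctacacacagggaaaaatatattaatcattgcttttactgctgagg
Col15a1: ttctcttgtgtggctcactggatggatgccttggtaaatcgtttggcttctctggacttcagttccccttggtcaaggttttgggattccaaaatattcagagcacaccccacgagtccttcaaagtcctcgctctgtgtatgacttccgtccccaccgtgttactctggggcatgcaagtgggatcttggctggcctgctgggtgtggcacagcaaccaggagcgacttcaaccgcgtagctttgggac
Col28a1: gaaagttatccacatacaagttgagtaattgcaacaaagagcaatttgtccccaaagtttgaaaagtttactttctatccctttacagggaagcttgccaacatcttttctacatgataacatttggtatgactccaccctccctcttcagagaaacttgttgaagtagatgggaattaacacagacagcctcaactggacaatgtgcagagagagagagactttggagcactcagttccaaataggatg
Col6a5: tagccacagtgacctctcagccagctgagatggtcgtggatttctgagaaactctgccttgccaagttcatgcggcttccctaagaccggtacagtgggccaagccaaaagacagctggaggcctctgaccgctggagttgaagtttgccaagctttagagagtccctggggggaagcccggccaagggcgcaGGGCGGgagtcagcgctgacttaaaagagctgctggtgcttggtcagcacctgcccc
Col3a1 held 1 TATAAA, which 12.4% of 32851 windows of this length hold, and Col6a5 held 1 GGGCGG, which 32.7% hold. CCAAT, present in 33.8% of windows, was in none of the 4, and Col15a1 and Col28a1 held none of the 3 motifs. The share of G and C was 35.2% for Col3a1, 53.6% for Col15a1, 40.4% for Col28a1 and 58.8% for Col6a5.

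Libraries held 23541485 to 33950555 counts. Several tumors stood apart from their groups. The level of long transcripts (at least 6000 bases) relative to short ones (at most 1500 bases), given as the difference of their median log2 deviations, was -1.53 in PBS replicate 2, -0.86 in PBS replicate 1, -0.96 in Cisplatin replicate 4 and -2.81 in Cisplatin+ICB replicate 1. The other 24 tumors lay between -0.38 and 0.53. Collagen transcripts are long, with a median of 6084 bases against 3097 for the 14928 protein-coding genes tested. 5-FU+ICB replicate 5 had the highest skeletal muscle and endothelial markers of all tumors, and ICB replicate 2 had the highest epidermal markers (459 CPM summed, against 0.68 to 20.6 in the other tumors). Of the 7 mesothelial or tumor cell markers, Msln (mesothelin) carried most of the level. It was at 34.4 to 654 CPM in 27 tumors but at 0.5 CPM in 5-FU+ICB replicate 5, which in turn was high in the keratins Krt8, Krt18 and Krt19 (33.4, 27.2 and 48.9 CPM). Upk3b stayed at or below 0.0671 CPM and Wt1 at or below 2.78 CPM.

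Collagen transcripts made up 0.192% to 3.47% of a tumor's counts, and the median was 1.33%. The 95% Wilson interval of such a share was at most 0.013 percentage points wide, so counting error was small against the spread between tumors. Per kilobase of transcript, Col3a1 led with a mean of 1030 CPM per kb over the 28 tumors (38.8% of all collagen on that scale). Col1a2 and Col1a1, the chains of type I collagen, followed at 440 and 264 CPM per kb, and Col6a1 and Col6a2, the short chains of type VI, at 257 and 179. Col5a2, a chain of the type V collagen that starts fibrils, was at 99.2 CPM per kb, and Col4a1 and Col4a2 at 61.1 and 41.4. At the other end, Col9a1 was at 0 counts in 21 tumors, and Col22a1, Col25a1 and Col9a1 passed no filter on low counts. Col26a1 passed it with all 6 groups joined. The other 36 members were tested in every comparison.

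Summed over a class, fibrillar and other collagen types were highest in the 5-FU group. The 10 fibrillar genes summed to 9710 ± 4220 CPM (SD, n = 4) in PBS tumors, 7710 ± 1640 (n = 5) after ICB, 17900 ± 3340 (n = 5) after 5-FU, 11100 ± 3250 (n = 4) after cisplatin, 11800 ± 5000 (n = 5) after 5-FU+ICB and 7480 ± 3120 (n = 5) after cisplatin+ICB. All 5 tumors of the 5-FU group, at 14600 to 22900 CPM, were above all 4 PBS tumors, at 4950 to 13600 CPM. The other types summed to 2430 ± 961 CPM in PBS tumors and 5220 ± 1590 after 5-FU, and again these groups did not overlap. Basement membrane genes summed to 871 ± 519 CPM in PBS tumors and 1300 ± 176 after 5-FU, and PBS replicate 3, at 1520 CPM, lay within the range of the 5-FU group. These sums are descriptions and were not tested.

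**Figure D1:**
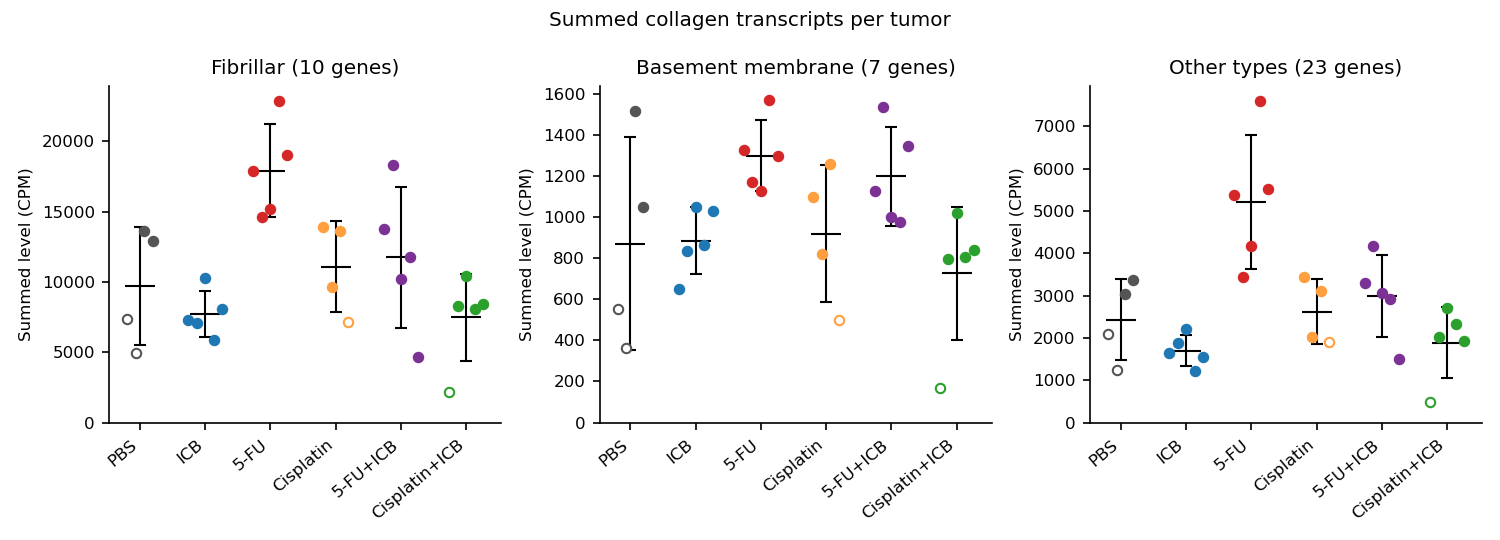
Summed CPM (y axis, linear) of the fibrillar, basement membrane and other collagen genes in each of 28 tumors, by treatment (x axis). Circles are tumors, open where the long-transcript level was among the lowest 4, and bars are mean ± SD. The 5-FU tumors are above all PBS tumors for fibrillar and other types, and both open PBS circles are below the filled ones in each panel.

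The 4 tumors low in long transcripts had less collagen than the rest of their groups. 5-FU+ICB replicate 5, not among these 4, also had a low share of counts (0.586%). All members summed to 10000 and 6560 CPM in PBS replicates 1 and 2 and to 18200 and 17300 CPM in PBS replicates 3 and 4. Cisplatin+ICB replicate 1 had 2810 CPM, against 11100 to 14200 CPM in the rest of its group. Over the 28 tumors, the long-transcript level and the log2 summed level had r = 0.74 and rho = 0.52 for fibrillar genes (permutation test, two-sided, adjusted p = 0.00012 and 0.0084 over 10 correlations), r = 0.86 and rho = 0.41 for basement membrane genes (adjusted p = 2.5e-05 and 0.033) and r = 0.69 and rho = 0.45 for other types (adjusted p = 0.00019 and 0.023). Without the 2 tumors farthest from the median, r was 0.45, 0.57 and 0.37, and with each group's mean removed it was 0.87, 0.91 and 0.87 over all tumors. Among the 24 tumors that were not low, the same measures had r = 0.38 and rho = 0.30 for fibrillar genes (adjusted p = 0.11 and 0.25), r = 0.11 and rho = 0.07 for basement membrane genes (adjusted p = 0.68 and 0.75) and r = 0.35 and rho = 0.26 for other types (adjusted p = 0.13 and 0.32). The chain ratio of type I collagen was lowest in the same 4 tumors. Col1a1 over Col1a2 was 0.169 in Cisplatin+ICB replicate 1, 0.289 to 0.386 in the other 3 low tumors, and 0.498 to 0.888 in the remaining 24. With the long-transcript level it had r = 0.89 and rho = 0.46 over the 28 tumors (permutation test, adjusted p = 2.5e-05 and 0.023), r = 0.68 without the 2 farthest, and r = 0.20 and rho = 0.14 among the 24 (adjusted p = 0.45 and 0.65). The type IV chains kept closer together, with Col4a1 over Col4a2 between 1.34 and 1.89 in all 28 tumors (r = -0.59 and rho = -0.28 with the long-transcript level, adjusted p = 0.00068 and 0.15, r = -0.48 without the 2 farthest and -0.06 among the 24), while Col4a1 itself ran from 28.6 to 669 CPM. The part of the long-transcript level in the treatment differences was not tested directly. Counts of collagen calls against PBS were repeated with a transcript length offset and without these 4 tumors, both chosen after seeing the data.

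**Figure D2:**
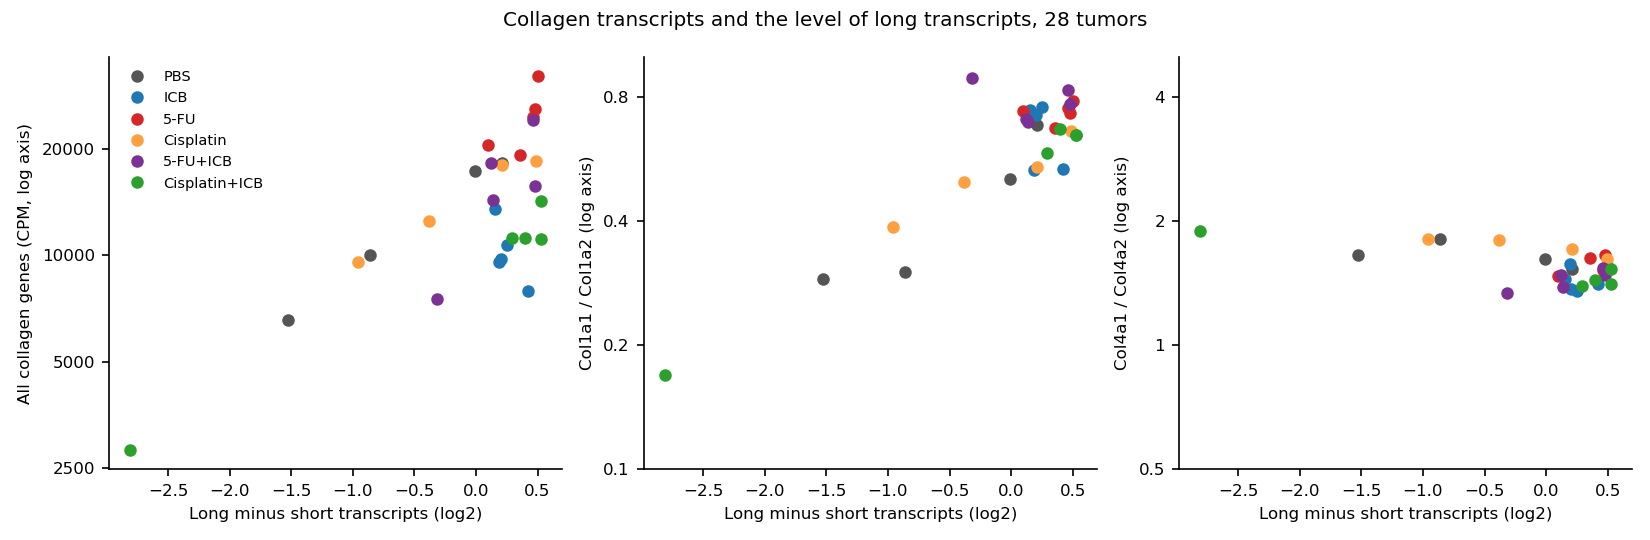
Summed collagen CPM, Col1a1 over Col1a2 and Col4a1 over Col4a2 (y axes, log scale) against the log2 level of long minus short transcripts (x axis), 1 point per tumor, coloured by treatment. The tumor at -2.81, Cisplatin+ICB replicate 1, has the lowest collagen level and the lowest Col1a1 to Col1a2 ratio, while Col4a1 to Col4a2 stays between 1.34 and 1.89.

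5-FU against PBS gave 13 collagen calls, all of them higher. Here and below a gene is called when edgeR's quasi-likelihood test gave a Benjamini-Hochberg adjusted p under 0.05 over all genes and the log2 fold change was over 0.5 in size. Of 36 members tested, 13 rose and 0 fell, and the background was 9.98% of 17916 genes called higher and 13.0% called lower. The median log2 fold change was 0.85 over the members and -0.01 over all genes. By type, 5 of 10 fibrillar, 1 of 7 basement membrane and 7 of 19 other genes rose. For 13 of the 36 members the groups did not overlap, where 27.0% of all genes did not.

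Among fibrillar genes, both chains of type I collagen rose. Col1a1 was at 599, 270, 1850 and 1560 CPM in the PBS tumors and at 2660, 1890, 2580, 3750 and 3220 CPM in the 5-FU tumors. The lowest 5-FU tumor was just above the highest PBS tumor, and the gene rose by a log2 fold change of 1.45 ± 0.42 (SE, adjusted p = 0.0201). Col1a2 was at 1990, 935, 2720 and 3080 CPM and at 3550, 2810, 3480, 4810 and 4410 CPM, with overlap, and rose by 0.84 ± 0.29 (adjusted p = 0.0419). Col5a3, a minor type V chain, was at 75.8, 46.6, 201 and 170 CPM in PBS tumors and at 282, 266, 217, 351 and 259 CPM after 5-FU, without overlap (1.20 ± 0.38, adjusted p = 0.0289). The low-level genes Col24a1, a fibrillar collagen of developing bone and eye, and Col11a2, a type XI chain best known from cartilage, rose by 1.74 ± 0.52 (adjusted p = 0.0236) and 1.72 ± 0.51 (adjusted p = 0.0219). Col24a1 was at 1.01 to 2.96 CPM in PBS tumors and 3.20 to 8.50 CPM after 5-FU, and Col11a2 at 0.203 to 0.904 CPM and 0.98 to 2.2 CPM. Col3a1 was not called (0.85 ± 0.38, adjusted p = 0.0984), although its PBS values of 3950, 3250, 7060 and 6480 CPM lay below all of its 5-FU values of 9500, 8080, 7510, 11600 and 9280 CPM. Col5a1 ran from 114 to 703 CPM in PBS tumors and from 636 to 1170 CPM after 5-FU, and Col5a2 from 320 to 1000 CPM and from 692 to 1100 CPM, both with overlap and without a call.

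All 3 chains of classical type VI collagen rose after 5-FU. Col6a1 was at 878, 506, 1060 and 1340 CPM in PBS tumors and at 2040, 1350, 1610, 2950 and 2050 CPM after 5-FU (1.11 ± 0.32, adjusted p = 0.0189). The groups touched without overlapping, at 1340 and 1350 CPM. Col6a2 rose by 1.21 ± 0.33 (adjusted p = 0.0153), from 399 to 1070 CPM to 1030 to 2520 CPM. Col6a3, the large chain, rose by 1.58 ± 0.45 (adjusted p = 0.0182), with 147, 74.8, 506 and 376 CPM in PBS tumors and 897, 462, 511, 1250 and 873 CPM after 5-FU.

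Larger folds, at far lower levels, were found for the chromosome 9 type VI chains. Col6a5 had 2, 10, 7 and 3 counts in the PBS tumors and 247, 23, 211, 83 and 240 counts in the 5-FU tumors (4.83 ± 1.17, adjusted p = 0.00991). Col6a6 had 3, 5, 2 and 11 counts and 84, 15, 99, 72 and 159 counts (4.02 ± 0.88, adjusted p = 0.00703). 5-FU replicate 2 was the lowest of its group for both and still above the PBS tumors. These chains stand in for Col6a3 in some type VI filaments.

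Col28a1, Col14a1 and Col15a1 completed the list. Col28a1, a relative of type VI known from peripheral nerve, was at 0.811, 1.22, 1.66 and 1.26 CPM in PBS tumors and at 4.11, 4.24, 9.57, 4.52 and 5.99 CPM after 5-FU, with the smallest p of all members (2.22 ± 0.36, adjusted p = 0.00181). Col14a1, a FACIT of mature fibers, was at 15.5, 15.1, 26.5 and 24.4 CPM and at 61.6, 49.6, 107, 67.8 and 112 CPM (2.00 ± 0.53, adjusted p = 0.0139). Col15a1, a basement membrane collagen of vessels and muscle, was at 26.8, 17.5, 58.6 and 46.8 CPM and at 96.8, 59.1, 115, 116 and 134 CPM (1.52 ± 0.38, adjusted p = 0.0111). In all 3 genes every 5-FU tumor was above every PBS tumor.

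Most 5-FU calls were lost when PBS replicate 1 or 2 was left out. The count went from 13 to 4 in both fits, with medians of 0.81 and 0.70. Calls over all genes, 1788 higher and 2327 lower in the main fit, fell to 1919 and 1436 in both directions together. Leaving out PBS replicate 3 or 4 raised the collagen count to 16 and 15 and the calls over all genes to 4741 and 4243. Col28a1, Col6a5, Col6a6 and Col15a1 were called in all 9 fits without 1 tumor. With all 6 groups joined, 5 of 37 members and 4.45% of all genes were called, and the median was 0.83. With the transcript length offset 11 of 36 members rose (background 17.2% called), without Col1a2 (0.58, adjusted p = 0.0877) and Col24a1 (1.31, adjusted p = 0.0521), and the median was 0.56. Without the 4 tumors low in long transcripts, 2 PBS tumors remained, 0 of 38 members and 0.37% of all genes were called, and the median was 0.57. There Col28a1 had a log2 fold change of 2.03 (adjusted p = 0.082), Col6a5 of 5.06 (adjusted p = 0.2) and Col1a1 of 0.80 (adjusted p = 0.306).

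**Figure D3:**
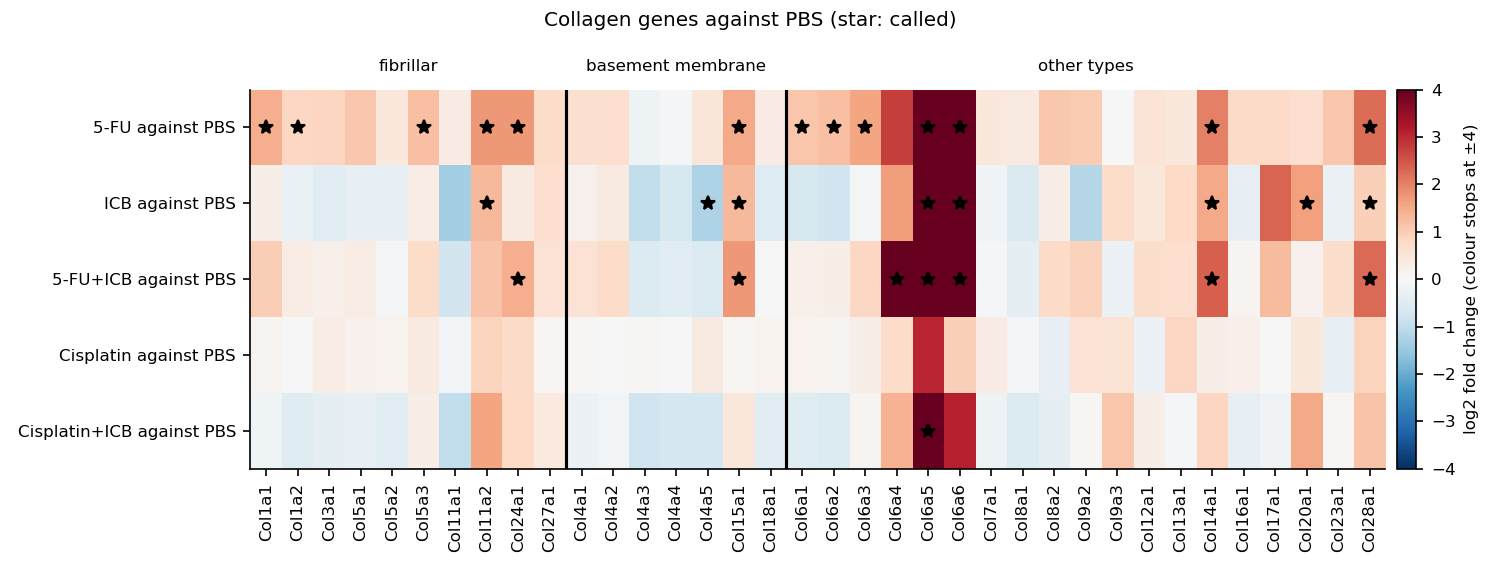
Log2 fold change against PBS (colour, stopped at 4 in either direction) of the 36 tested collagen genes (x axis, by type) for 5 treatments (y axis). Stars mark called genes. The 5-FU row holds 13 stars and the cisplatin row holds none.

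After ICB, 8 collagen genes were called against PBS. Of 36 members, 7 rose and 1 fell, where 19.0% of all genes rose and 18.8% fell, and the median log2 fold change was 0.20. Groups did not overlap for 4 members, against 37.4% of all genes. None of the 3 genes with the highest level per kilobase was called: Col3a1 had -0.42 ± 0.37, Col1a2 -0.26 ± 0.28 and Col1a1 0.22 ± 0.41 (adjusted p = 0.362, 0.466 and 0.676). Col6a1 and Col6a2 had negative values and were not called (-0.65 ± 0.31 and -0.78 ± 0.32, adjusted p = 0.0947 and 0.0558).

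The member that fell after ICB was Col4a5, a type IV chain known from kidney, lung and skin basement membranes. It was at 83.5, 81.8, 79.8 and 86.6 CPM in PBS tumors and at 50.7, 30.0, 26.2, 36.9 and 29.6 CPM after ICB (-1.23 ± 0.47, adjusted p = 0.0443). The groups did not overlap, and the PBS tumors were close together for this gene, including the pair low in long transcripts. The call was lost in 8 of the 9 fits without 1 tumor, with values of -1.41 to -1.14, and without the 4 tumors low in long transcripts (-1.18, adjusted p = 0.179), and it held with the length offset (-1.67, adjusted p = 0.0108). It was also lost with the replicate block, total counts as library sizes, no filter on low counts and DESeq2 size factors. In the same PBS tumors Col4a1, which forms the common type IV trimer with Col4a2, was at 193, 98.5, 669 and 441 CPM and spread widely, and after ICB it was at 280 to 452 CPM.

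Genes that rose after ICB were Col6a6, Col6a5, Col15a1, Col20a1, Col14a1, Col28a1 and Col11a2. Col6a6 was at 0.122, 0.170, 0.0723 and 0.365 CPM in PBS tumors and at 1.47, 2.86, 7.30, 0.853 and 2.12 CPM after ICB (3.97 ± 0.88, adjusted p = 0.00243). Col6a5 was at 0.0811 to 0.339 CPM and at 0.784, 8.20, 8.29, 0.152 and 1.10 CPM, so that 1 ICB tumor lay within the PBS range (4.25 ± 1.15, adjusted p = 0.00775). Col20a1, a FACIT of unclear role, was at 0.73, 0.576, 0.47 and 1.23 CPM and at 2.66, 3.43, 1.54, 2.32 and 1.51 CPM, without overlap (1.64 ± 0.50, adjusted p = 0.0156). Col15a1 was at 45.5, 96.0, 131, 45.4 and 124 CPM after ICB (1.29 ± 0.38, adjusted p = 0.0115) and Col14a1 at 25.5, 39.3, 139, 18.5 and 64.0 CPM (1.52 ± 0.52, adjusted p = 0.0257), both overlapping PBS. Col28a1 was at 1.81 to 3.28 CPM, above all PBS tumors (0.95 ± 0.35, adjusted p = 0.0367), and Col11a2 at 0.513 to 1.97 CPM, with overlap (1.31 ± 0.50, adjusted p = 0.045).

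Of the ICB calls, Col6a6, Col6a5, Col15a1 and Col20a1 held in all 9 fits without 1 tumor and with the length offset, though the Col15a1 call was lost with all 6 groups joined (1.24) and in the matrix of the cisplatin groups (1.25). Col28a1 held in 4 of the 9 (0.80 to 1.08) and was lost with the length offset (0.82, adjusted p = 0.0732), the replicate block (0.85) and the groups joined (0.92). Col11a2 held in 3 of the 9 (1.06 to 1.72) and was lost with the length offset (1.02, adjusted p = 0.0898), the block (1.32), the groups joined (1.25) and total counts as library sizes (1.31), among other settings. The Col14a1 call was lost without ICB replicate 3 (0.90, adjusted p = 0.116), without PBS replicate 1 or 2 (1.42 each), with the length offset (1.17, adjusted p = 0.0787) and with the replicate block (1.20). The count of 8 became 4 without PBS replicate 1 and 5 without PBS replicate 4. Calls over all genes were 5377 and 6607 in these 2 fits, against 3396 higher and 3375 lower in the main fit. With the length offset 4 members rose and 6 fell, where 35.5% of all genes were called, and the median was -0.05. Without the 4 tumors low in long transcripts 0 rose and 1 of 38 fell, where 11.6% of all genes were called, and the median was -0.37. With 2 PBS tumors in that fit, Col6a6 had 3.76 (adjusted p = 0.0565), Col6a5 4.47 (adjusted p = 0.0819), Col20a1 1.51 (adjusted p = 0.138), Col14a1 1.24 (adjusted p = 0.215) and Col15a1 0.83 (adjusted p = 0.186).

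5-FU+ICB against PBS raised 7 of 36 members and lowered 0, where 21.9% of all genes rose and 18.7% fell, and the median was 0.63. For 6 members the groups did not overlap, against 25.5% of all genes. Col28a1 was at 5.96, 4.93, 2.84, 5.23 and 10.0 CPM (2.26 ± 0.36, adjusted p = 0.000532). Col6a5 was at 17.6, 1.49, 13.7, 26.9 and 16.5 CPM (6.30 ± 1.24, adjusted p = 0.00137) and Col6a6 at 5.36, 0.527, 2.72, 5.29 and 8.45 CPM (4.61 ± 0.90, adjusted p = 0.00136). Replicate 2 was the lowest tumor for both and still above all PBS tumors. Col15a1, at 87.2 to 176 CPM, rose by 1.72 ± 0.38 (adjusted p = 0.00253), Col14a1, at 40.2 to 175 CPM, by 2.40 ± 0.54 (adjusted p = 0.00263), and Col24a1, at 1.00 to 8.63 CPM, by 1.45 ± 0.52 (adjusted p = 0.03).

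Col6a4, the third chromosome 9 chain, rose in this comparison by 5.87 ± 1.31 (adjusted p = 0.00261). It was at 1.68, 0.403, 0.973, 0.990 and 32.9 CPM after 5-FU+ICB and at 0.162, 0.0339, 0.217 and 0.0997 CPM in PBS tumors. All 5 tumors were above the controls, but replicate 5 held most of the reads, and the value ranged from 2.99 to 6.19 over the fits that left out 1 tumor. Type I collagen was not called after the combination: Col1a1 was at 2370, 2730, 1550, 2020 and 1430 CPM (0.98 ± 0.41, adjusted p = 0.0617). Without PBS replicate 3 the collagen count rose from 7 to 13, with 7293 genes called in all, against 3930 higher and 3353 lower in the main fit. Without 5-FU+ICB replicate 5 the collagen count was 8 (6559 genes in all). Without the 4 tumors low in long transcripts it was 3 of 38 (Col28a1 at 2.07, Col6a5 at 6.51 and Col6a6 at 4.39, adjusted p = 0.0265, 0.0399 and 0.0451). With the length offset 6 rose and 1 fell. Of all genes, 9.45% were called without the 4 tumors and 39.7% with the length offset.

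**Figure D4:**
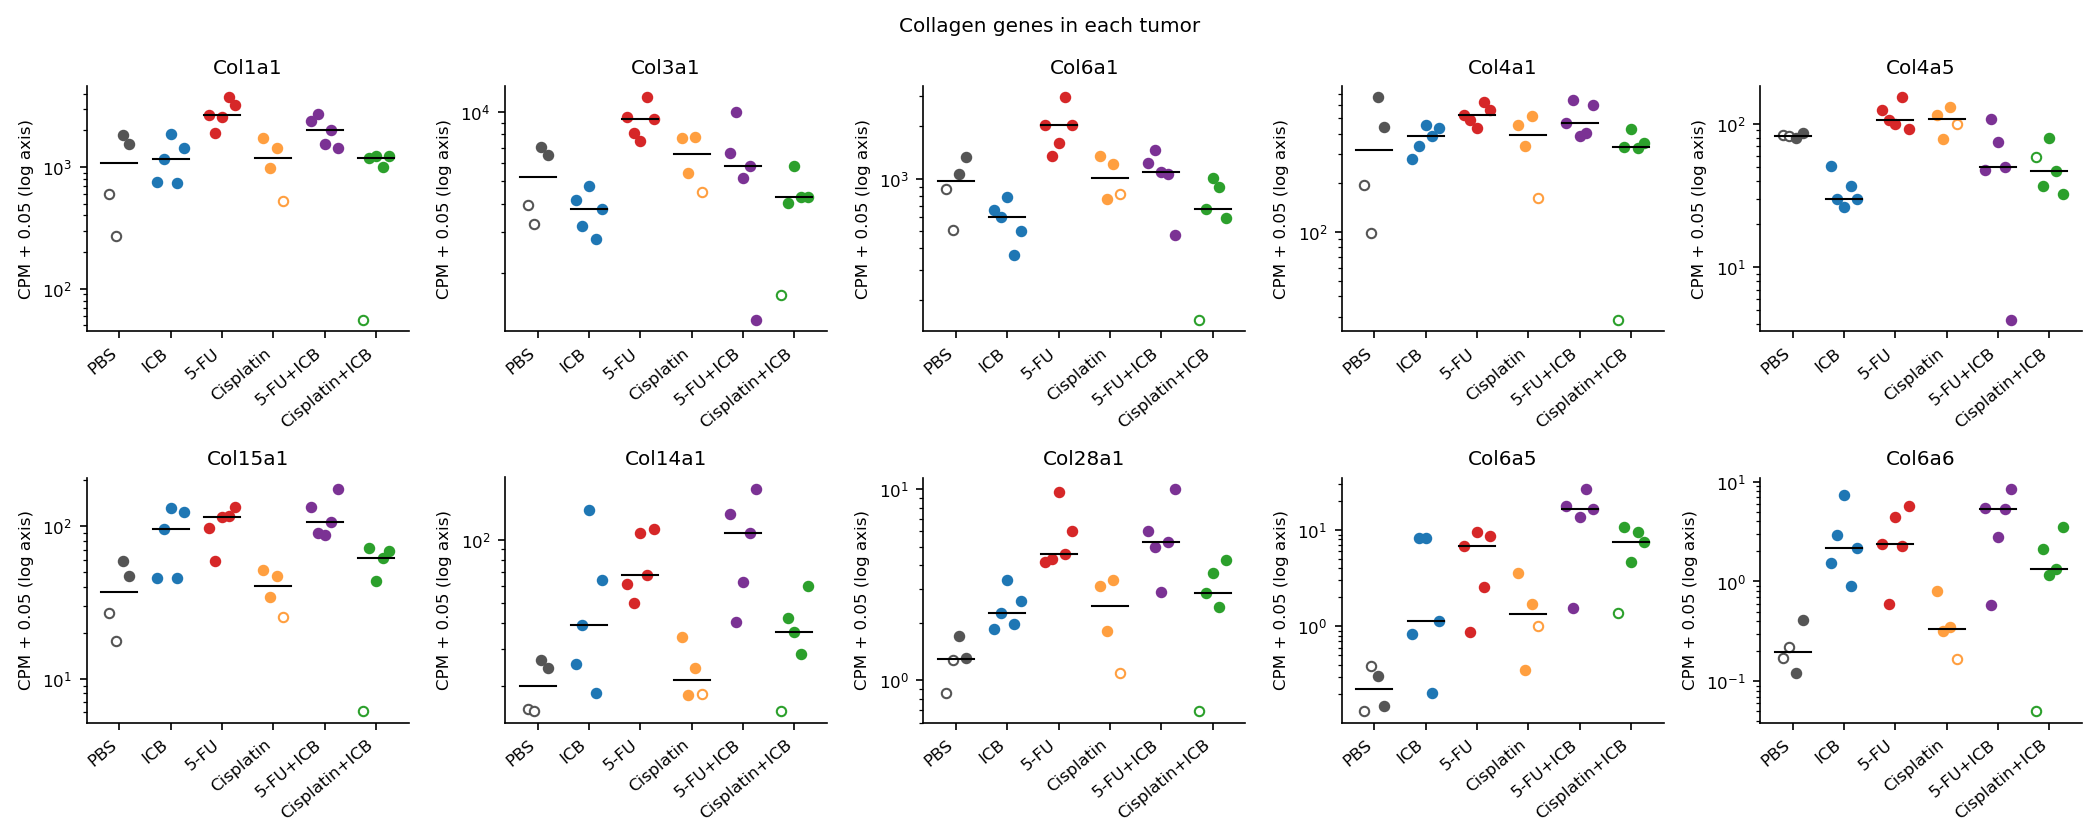
CPM plus 0.05 (y axis, log scale) of collagen genes in each tumor by treatment (x axis). Circles are tumors, open for the 4 lowest in long transcripts, and lines are medians. Col28a1, Col6a5 and Col6a6 lie higher in all 5-FU and 5-FU+ICB tumors than in PBS tumors, and Col4a5 is lower in all ICB tumors than in PBS tumors.

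Cisplatin against PBS gave no collagen call by edgeR's test (0 of 36, background 0%), with 1 member at an unadjusted p under 0.05 and 0 called by DESeq2, with the length offset or without the 4 tumors. The smallest p belonged to Col6a5 (3.04 ± 1.09), Col28a1 (0.88 ± 0.46) and Col11a2 (0.89 ± 0.51), each with an adjusted p of 1. Col6a5 was at 3.56, 0.305, 1.64 and 0.948 CPM, overlapping PBS in Cisplatin replicate 2. Col1a1 was at 1720, 974, 1420 and 527 CPM, of which the last was the tumor low in long transcripts. Col4a5 was at 115, 77.6, 130 and 99.8 CPM.

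Cisplatin+ICB against PBS raised Col6a5 and no other member, where 4.70% of all genes rose and 1.40% fell, and the median was -0.13. Col6a5 was at 1.33, 10.7, 4.63, 9.44 and 7.56 CPM, above all PBS tumors (5.10 ± 1.14, adjusted p = 0.0197). This call was lost with the replicate block and in a model of the compared groups, where 0.533% and 0% of all genes were called. Cisplatin+ICB replicate 1 was far below its group: its Col1a1 was at 55.5 CPM against 1000 to 1240 CPM in the other 4 tumors, and its Col4a1 at 28.6 CPM against 327 to 426 CPM. Without this tumor 8 members rose, 1 fell and the median was 0.19. Calls over all genes went from 837 higher and 250 lower to 6277 in both directions together. The count was 3 without Cisplatin+ICB replicate 3, where 1574 genes were called in all. It was 0 without PBS replicate 1, where no gene was called, and without PBS replicate 3 or 4. With the length offset 3 rose and 4 fell, where 9.38% of all genes were called, and without the 4 tumors low in long transcripts 2 of 37 rose and 1 fell, where 9.4% were.

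Direct comparisons between treatments yielded 1 collagen call in all by edgeR's test. The shares of all genes at an unadjusted p under 0.05 were not counted. 5-FU+ICB against ICB gave 0 of 36 members (background 0.229% of genes in either direction), 11 at an unadjusted p under 0.05 and 1 of 40 by DESeq2 (0.923% of all genes). The smallest p were those of Col28a1 (1.31 ± 0.32, adjusted p = 0.1), Col6a4 (4.19 ± 1.06, adjusted p = 0.112) and Col6a2 (1.00 ± 0.30, adjusted p = 0.188). 5-FU+ICB against 5-FU gave 0 (background 0.0112%), 4 at an unadjusted p under 0.05 and 1 of 40 by DESeq2 (1.52% of all genes). By edgeR, Col6a2 was at -0.99 ± 0.30, Col6a4 at 3.10 ± 1.00 and Col6a1 at -0.89 ± 0.29 (adjusted p = 0.157, 0.162 and 0.165). All 10 fibrillar genes had negative values there, with a median of -0.50. Without 5-FU+ICB replicate 2 this comparison had 5 calls.

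Cisplatin+ICB against ICB gave 0 of 36 (background 0%), 3 at an unadjusted p under 0.05 and 0 by DESeq2. Col17a1, a transmembrane collagen of epidermal hemidesmosomes, had the smallest p (-2.42 ± 0.92, adjusted p = 0.291). Its value turned to 0.34 without ICB replicate 2, the tumor with the high epidermal markers, where it was at 24.3 CPM against 0.453 to 1.19 CPM in the rest of that group. Col4a5 (0.55 ± 0.24) and Col9a2, a FACIT chain of cartilage (1.21 ± 0.54), followed (adjusted p = 0.297 and 0.3). Cisplatin+ICB against Cisplatin gave 0 (background 0%), 5 at an unadjusted p under 0.05 and 1 of 40 by DESeq2 (2.21% of all genes). Here Col4a5 had the smallest p, at 58.9, 36.7, 79.8, 46.6 and 32.3 CPM against 115, 77.6, 130 and 99.8 CPM (-1.05 ± 0.25, adjusted p = 0.0806), and 1 tumor of the combination lay above the lowest cisplatin tumor. Col6a6 (2.14 ± 0.87) and Col20a1 (1.11 ± 0.46) came next (adjusted p = 0.261 and 0.267). The count was 3 without Cisplatin+ICB replicate 1 and 1 without Cisplatin+ICB replicate 3.

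5-FU against Cisplatin gave 0 of 37 members (background 0.362%), 10 at an unadjusted p under 0.05 and 5 of 40 by DESeq2 (1.82% of all genes). Of the 37, 33 had a higher value after 5-FU (median 0.73). Col14a1 was at 49.6 to 112 CPM after 5-FU and 18.0 to 34.3 CPM after cisplatin, without overlap (1.75 ± 0.50, adjusted p = 0.106). Col6a6 (3.06 ± 0.91) and Col28a1 (1.31 ± 0.43) followed (adjusted p = 0.114 and 0.153). 5-FU+ICB against Cisplatin+ICB called Col6a4 (4.43 ± 0.99, adjusted p = 0.0494), where 0.297% of genes were called. The call was lost without 5-FU+ICB replicate 5, which moved the value to 1.57, and also without 5-FU+ICB replicate 1 or without any 1 of Cisplatin+ICB replicates 1 to 4. Leaving out 5-FU+ICB replicate 2 or Cisplatin+ICB replicate 5 gave 2 calls. Whether 5-FU or cisplatin changed the effect of ICB was tested with interaction terms, and no member passed (0 of 36 for each drug, smallest adjusted p 0.0809 and 0.564, with 4 and 1 members at an unadjusted p under 0.05).

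Cell type markers were read beside the collagen genes. Of 8 fibroblast markers, 4 were called higher after 5-FU, 2 after ICB and 3 after 5-FU+ICB, and of 7 endothelial markers 2, 2 and 6. Of 6 mural cell markers 2, 2 and 5 were called higher, and of 4 Schwann cell markers 1, 2 and 3. The shares of all genes called higher were 9.98%, 19.0% and 21.9% in these comparisons. Of 7 skeletal muscle markers 1 was called, after 5-FU+ICB, and of 4 adipocyte markers none was called in these comparisons. The 8 fibroblast markers summed to 668 to 773 CPM in PBS tumors, 863 to 1600 CPM after 5-FU, 557 to 1570 CPM after ICB and 815 to 1860 CPM after 5-FU+ICB, and none of the 8 was at 0 in all tumors. The 7 endothelial markers summed to 80.6 to 148 CPM in PBS tumors, 147 to 349 CPM after 5-FU, 151 to 305 CPM after ICB and 178 to 738 CPM after 5-FU+ICB. The 7 skeletal muscle markers summed to 105 to 184 CPM in PBS tumors but to 9.24 to 1580 CPM after 5-FU, 1.92 to 3610 CPM after ICB and 2.98 to 5250 CPM after 5-FU+ICB. Adipocyte markers summed to 9.29 to 19.4 CPM in PBS tumors and 4.46 to 134 CPM after 5-FU. Mural cell markers summed to 76.5 to 95.2 CPM in PBS tumors, 95.9 to 266 CPM after 5-FU, 73.7 to 220 CPM after ICB and 114 to 794 CPM after 5-FU+ICB. Schwann cell markers summed to 10.4 to 20.9 CPM in PBS tumors and to 23 to 152, 24.5 to 127 and 17.9 to 275 CPM in these groups. The 7 leukocyte markers summed to 588 to 743 CPM in PBS tumors, 1440 to 3210 CPM after ICB, 622 to 1710 CPM after 5-FU and 604 to 2220 CPM after 5-FU+ICB. In these 3 comparisons with PBS, 6, 3 and 4 of them were called higher, where 19.0%, 9.98% and 21.9% of all genes were. Their median log2 fold changes were 1.98, 1.09 and 2.15. The 5 proliferation markers summed to 1230 to 1760 CPM in PBS tumors, 477 to 1340 CPM after ICB, 684 to 1430 CPM after 5-FU and 435 to 1690 CPM after 5-FU+ICB. Birc5, Cdk1 and Ccnb1 were called lower in all 3 comparisons, where 18.8%, 13.0% and 18.7% of all genes were. Mki67 and Top2a were called in none of the 3. Mki67 was at 170, 97.9, 678 and 480 CPM in PBS tumors and at 226 to 536 CPM after 5-FU. The mesothelial or tumor cell markers summed to 273 to 361 CPM in PBS tumors, 54.8 to 218 CPM after ICB, 46.8 to 178 CPM after 5-FU and 37.8 to 169 CPM after 5-FU+ICB. Msln was at 271 to 358 CPM in PBS tumors and at 52 to 217, 45 to 177 and 0.5 to 167 CPM in these groups, without overlap, and was called lower after 5-FU+ICB only. Wt1, at or below 2.78 CPM, was called higher in all 3 comparisons, and Krt19 was called higher after 5-FU+ICB. Over the 4 markers tested, the median log2 fold changes were 0.09, -0.33 and 2.65.

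Over the 28 tumors, log2 Col14a1 and the fibroblast sum had r = 0.93 and rho = 0.91 (permutation test, two-sided, adjusted p = 2.5e-05 and 3.3e-05, raw p = 1e-05 for both, the smallest that 100000 permutations give), and r = 0.93 without the 2 tumors farthest from the median. Col15a1 and the endothelial sum had r = 0.89 and rho = 0.89 (the same adjusted and raw p), and r = 0.89 without the 2 farthest tumors. Col6a5 and the skeletal muscle sum had r = 0.66 and rho = 0.72 (raw p = 1e-04 and 4e-05, adjusted p = 0.00017 and 8e-05), r = 0.67 without the 2 farthest. Col6a5 and the adipocyte sum had r = 0.63 and rho = 0.71 (raw p = 0.00039 and 4e-05, adjusted p = 0.00049 and 8e-05), r = 0.63 without them. Among the 24 tumors not low in long transcripts, these r were 0.93, 0.85, 0.69 and 0.70. Tumors of different treatments are pooled in these values and in the permutations, so p does not measure covariation within a treatment. With each group's mean removed, these r were 0.87, 0.82, 0.83 and 0.77. The p were adjusted over 10 correlations, while r was computed for every tested member with every marker sum. The marker sums move together, so no pair is particular. Col6a5 had r = 0.80 with the fibroblast, 0.69 with the Schwann cell and 0.67 with the mural cell sum, Col14a1 had r = 0.89 with the Schwann cell and 0.87 with the endothelial sum, and the fibrillar sum had r = 0.39 with the fibroblast sum. Col6a6 had r = 0.81 with the leukocyte and -0.75 with the proliferation sum, and Col4a5, which fell after ICB, had -0.67 and 0.73. With the mesothelial or tumor cell sum, Col6a6 had r = -0.90, Col14a1 and Col15a1 -0.84, Col6a5 -0.73 and Col28a1 -0.70.

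Skeletal muscle markers were lowest in ICB replicate 4 at 1.92 CPM, 5-FU+ICB replicate 2 at 2.98 CPM and 5-FU replicate 2 at 9.24 CPM, and ICB replicates 1 and 5 and Cisplatin+ICB replicate 1, at 16, 55.8 and 71.9 CPM, were also below the PBS range. In the lowest 3 in turn, Col28a1 was at 1.92, 4.93 and 4.24 CPM, above the highest PBS tumor at 1.66 CPM. Col6a5 was at 0.152, 1.49 and 0.827 CPM, above the highest PBS tumor (0.339 CPM) in the last 2, and Col6a6 at 0.853, 0.527 and 0.539 CPM, above the highest PBS tumor (0.365 CPM) in all 3. Col14a1 was at 18.5, 40.2 and 49.6 CPM, within the PBS range in the ICB tumor. The part of tumor cell, fibroblast, endothelial, mural cell, Schwann cell, leukocyte, adipocyte and skeletal muscle content in these differences was not tested.

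**Figure D5:**
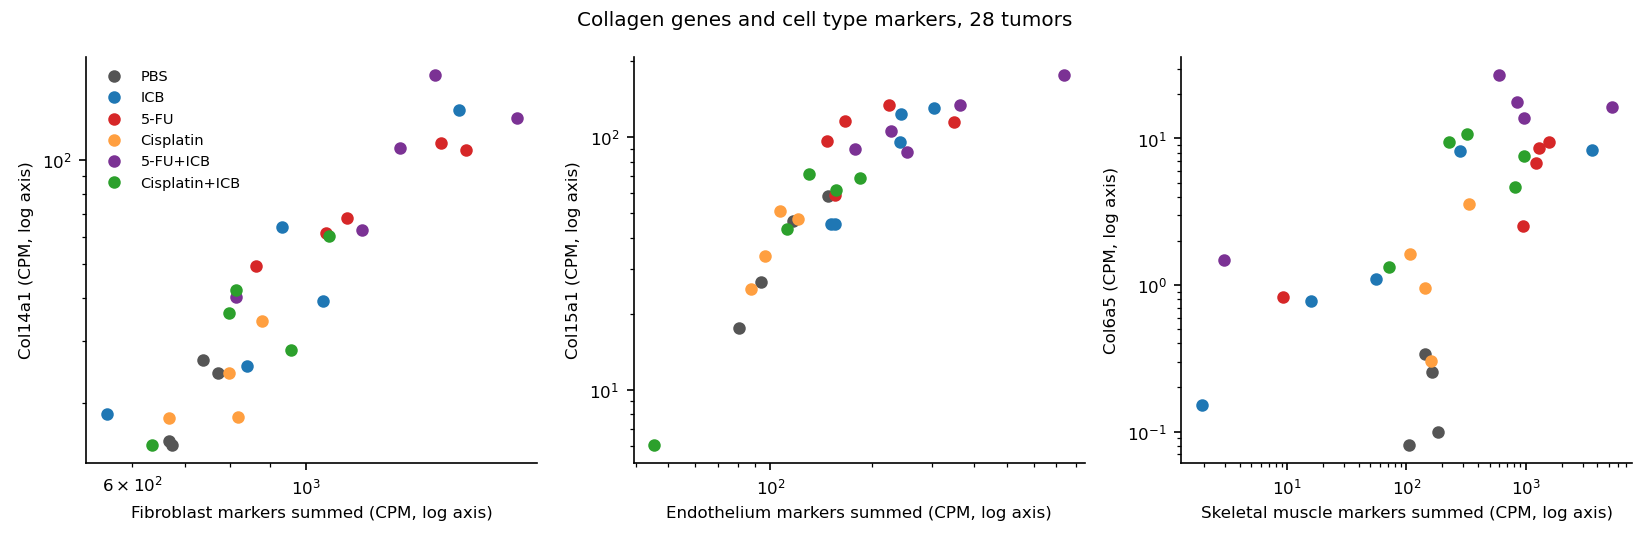
Col14a1, Col15a1 and Col6a5 (y axes, CPM, log scale) against the summed CPM of fibroblast, endothelial and skeletal muscle markers (x axes, log scale), 1 point per tumor coloured by treatment. Col14a1 and Col15a1 rise with their marker sums (r = 0.93 and 0.89), and the PBS tumors have Col6a5 at 0.0811 to 0.339 CPM at muscle sums of 105 to 184 CPM.

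The other abundant members were called in no comparison. Col18a1, the source of endostatin, was at 143, 105, 266 and 195 CPM in PBS tumors, 94.5 to 127 CPM after ICB and 183 to 274 CPM after 5-FU. Col8a1, a network collagen of vessel walls, was at 208, 153, 238 and 246 CPM in PBS tumors, 98.1 to 179 CPM after ICB and 204 to 345 CPM after 5-FU. Col12a1, a FACIT of tendon and scar, spanned 34.1 to 174 CPM in PBS tumors, 69.4 to 244 CPM after ICB and 57.0 to 194 CPM after 5-FU. Col16a1, another FACIT, spanned 51.5 to 217 CPM, 87.9 to 118 CPM and 159 to 255 CPM. Col4a2 followed Col4a1 at 59.8 to 436 CPM in PBS tumors and 295 to 403 CPM after 5-FU. Col4a3 and Col4a4, the kidney type IV chains that start 71 bases apart, were at 0.171 to 3.51 and 0.657 to 5.17 CPM over all tumors.

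Several genes that process collagen were called. After ICB, 8 of 21 genes for folding and modification fell and 2 rose, where 18.8% of all genes fell and 19.0% rose. Serpinh1, the collagen chaperone HSP47, was at 380 ± 18.8 CPM (SD, n = 5) against 892 ± 118 (n = 4) in PBS tumors (-1.22 ± 0.17, adjusted p = 0.000208), and P3h4 and Crtap, parts of lysine and proline hydroxylase complexes, fell by 1.28 and 0.55 on the log2 scale (adjusted p = 0.00239 and 0.00369). The Crtap call was lost with the length offset (-0.34, adjusted p = 0.0807) and without ICB replicate 2 (-0.46), among other settings. After 5-FU, 2 of the 21 rose (background 9.98%), the prolyl hydroxylases P4ha3 (1.11 ± 0.25, adjusted p = 0.00785) and P4ha2 (0.66 ± 0.22, adjusted p = 0.0344), and the cyclophilin Ppib fell (-0.57 ± 0.18, adjusted p = 0.0287), the last lost with the length offset (-0.10). Serpinh1 kept its call after ICB in all 9 fits without 1 tumor, with the length offset (-1.09, adjusted p = 0.000319) and without the 4 low tumors (-0.99, adjusted p = 0.0118).

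Among genes for propeptide removal and crosslinking, 6 of 11 rose after 5-FU and 0 fell, where 9.98% of all genes rose and 13.0% fell, led by the protease Tll1 (2.56 ± 0.68, adjusted p = 0.0144), the propeptidase Adamts2 (2.2 ± 0.59, adjusted p = 0.0149) and the lysyl oxidase Loxl2 (1.59 ± 0.46, adjusted p = 0.0189). After ICB 4 rose and 1 fell (background 19.0% and 18.8%), with Loxl2 at 1.84 ± 0.46, Lox at 1.29 ± 0.33 and Tll1 at 2.44 ± 0.68 (adjusted p = 0.00479, 0.00594 and 0.00916). Of 9 fibril partners, Tnxb (tenascin-X) and the proteoglycan Dcn rose after 5-FU, against 9.98% of all genes (3.98 ± 0.74 and 1.57 ± 0.55, adjusted p = 0.00344 and 0.0442), and after ICB Tnxb rose (2.99 ± 0.70, adjusted p = 0.00337) and the collagen-binding Sparc fell (-1.01 ± 0.18, adjusted p = 0.000742).

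Among collagen receptors and basement membrane partners, calls after 5-FU and after ICB were mostly higher. Of 9 receptors, 3 rose after 5-FU (background 9.98%): the integrin chains Itga1 and Itga11 and the kinase Ddr1 (1.56 ± 0.40, 2.66 ± 0.76 and 0.68 ± 0.22, adjusted p = 0.0128, 0.0189 and 0.0305). After ICB 3 rose and 1 fell (background 19.0% and 18.8%), with Itga1 at 2.53 ± 0.42, the leukocyte collagen receptor Lair1 at 1.97 ± 0.39 and Itga11 at 2.59 ± 0.76 (adjusted p = 0.000485, 0.00129 and 0.0119). Of 10 laminins and other basement membrane partners, 6 rose after 5-FU (background 9.98%), among them Lama2, Lama4 and Lamb2 (1.97 ± 0.36, 1.55 ± 0.35 and 0.82 ± 0.22, adjusted p = 0.00344, 0.00757 and 0.0149). After ICB 3 rose (background 19.0%), Lama4, Nid2 and Lama5 (1.36 ± 0.35, 1.07 ± 0.33 and 1.18 ± 0.39, adjusted p = 0.00557, 0.017 and 0.0227). In the TGF-beta pathway, which induces collagen in fibroblasts, the receptor Tgfbr2 and the ligand Tgfb2 rose after 5-FU (0.93 ± 0.26 and 1.59 ± 0.49, adjusted p = 0.0165 and 0.0258). After ICB the ligand Tgfb1 and the receptor Tgfbr2 rose (1.04 ± 0.22 and 0.85 ± 0.26, adjusted p = 0.00199 and 0.0138) and the ligand Tgfb3 fell (-0.67 ± 0.14, adjusted p = 0.00202). Without the 4 tumors low in long transcripts none of these named 5-FU changes was called, and of the ICB changes Crtap, Itga1, Lair1, Serpinh1, Sparc and Tgfb3 were. With 2 PBS tumors in that fit, several lost ICB calls had similar values, such as Lox at 1.32, Loxl2 at 1.60 and Tll1 at 2.00 (adjusted p = 0.0655, 0.0898 and 0.129).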

How the data were processed

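The authors pseudo-aligned 100-base single-end reads to mouse transcripts (GRCm38, mm10) with kallisto 0.46.0 after bcl2fastq 2.20.0.422, per the labels, and summarised them to genes with tximport. The deposited estimated counts are not normalized and come as one matrix for 5-FU and one for cisplatin, each with the same PBS and ICB libraries. A share of 23.7% of values had decimals, and all were rounded. Because an estimated count is an expected count over transcripts, reads shared by similar genes are split by the model. Strand and library batches were not given in the sources used here.

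Counts were filtered by group with filterByExpr, scaled by TMM and tested in edgeR 4.0.16 (R 4.3.3), with all groups of a matrix in the model and the comparisons between the chemotherapies in the joined matrices. CPM values use TMM library sizes over all 28 tumors. Standard errors come from the F statistic. Depth was 23541485 to 33950555 counts, and 3 counts correspond to 0.0884 to 0.127 CPM. Intervals cover counting error only. The test was checked on simulated counts with known changes.

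The members and lists were chosen with earlier results of these data known. Values are given for members called in a comparison, else for the 3 smallest p, and for members called anywhere or with a mean of at least 100 CPM; from other lists, at most 3 called genes per comparison are named. Gene length is that of the longest coding transcript in GENCODE M21. Alternatives were DESeq2 1.42.0, other scalings and filters, a replicate block, no fold threshold, a model of the compared groups, joined matrices and each tumor left out; the length offset (lowess span 0.5 of log2 CPM on length) and leaving out 4 tumors were added later. Some genes of the lists are not reported here.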

Additional observations from a re-analysis of the deposited data

Results flagged for a closer look

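In groups of 4 or 5 tumors, 168 groups of values (25 members and the 3 class sums in 6 treatments) were searched for 1 tumor far from the others by Dixon's ratio at the 95% level, and 12 were found. Chance finds one in about 5% of groups. Of these, 7 were Cisplatin+ICB replicate 1, which was low for Col1a1 (55.5 CPM, the next tumor at 1000), Col1a2 (328 CPM, the next at 1710), Col4a1 (28.6 CPM, the next at 327), Col4a2 (15.1 CPM, the next at 234), Col5a3 (21.7 CPM, the next at 164), the fibrillar sum (2150 CPM) and the basement membrane sum (167 CPM). This tumor also had the lowest long-transcript level (-2.81) and the lowest endothelial marker sum (45.4 CPM). Their part in these values was not tested.

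Col6a4 was high in 5-FU+ICB replicate 5 (32.9 CPM, the next at 1.68), the tumor with the highest muscle and endothelial sums (5250 and 738 CPM), and in 5-FU replicate 3 (1.96 CPM, the next at 0.789), which had the highest of both in its group (1580 and 349 CPM). Col12a1 was low in Cisplatin replicate 4 (41.8 CPM, the next at 99.4), which was also low in long transcripts (-0.96). Col11a2 was high in 5-FU+ICB replicate 4 (2.2 CPM, the next at 0.819). Col18a1 was low in ICB replicate 1 (94.5 CPM, the next at 122).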

How the results depend on the processing

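Counts of called members under the alternatives were as follows where they moved by over 1.5 times, with the share of all genes called in brackets. For ICB against PBS, 8 of 36 became 5 of 37 with all 6 groups joined (28%), 4 of 27 with at least 10 counts in every tumor (41.3%), 4 of 36 with the replicate block (33.7%), 1 of 38 without the 4 tumors low in long transcripts (11.6%) and 4 to 10 without 1 tumor. For 5-FU against PBS, 13 of 36 became 5 of 37 with the groups joined (4.45%), 0 of 38 without the 4 tumors (0.37%) and 4 to 16 without 1 tumor. 5-FU+ICB against PBS went from 7 of 36 to 3 of 38 without the 4 tumors (9.45%) and 6 to 13 without 1 tumor. For Cisplatin+ICB against PBS, 1 of 36 became 5 of 40 with DESeq2 (6.09%), 0 of 33 in a model of the compared groups (0%) and 0 of 36 with the replicate block (0.533%). It became 7 of 36 with the length offset (9.38%), 3 of 37 without the 4 tumors (9.4%) and 0 to 9 without 1 tumor. DESeq2 gave 1 of 40 for 5-FU+ICB against ICB (0.923%), for 5-FU+ICB against 5-FU (1.52%) and for Cisplatin+ICB against Cisplatin (2.21%). Without 1 tumor, 5-FU+ICB against 5-FU had 0 to 5 and Cisplatin+ICB against Cisplatin 0 to 3. The latter also had 1 of 37 without the 4 tumors (8.5%). 5-FU against Cisplatin had 5 of 40 with DESeq2 (1.82%) and 5 of 36 in a model of the compared groups (5.62%). For 5-FU+ICB against Cisplatin+ICB, 1 of 37 became 4 of 40 with DESeq2 (4.42%) and 0 to 2 without 1 tumor. It became 0 with at least 10 counts in every tumor (0.33%), with no filter (0.104%), in a model of the compared groups (0%), with the replicate block (0.248%), with total counts as library sizes (0.281%) and without the 4 tumors (0.0308%). Of the collagen fold changes given, 1 value turned sign, Col17a1 in Cisplatin+ICB against ICB, which ran from -2.71 to 0.34 over the fits without 1 tumor and turned without ICB replicate 2.

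The cause of these shifts was not tested. Replicate numbers did not pair tumors: deviations of same-numbered tumors correlated from -0.47 to 0.68 in the 5-FU matrix and -0.66 to 0.49 in the cisplatin matrix, so the block is a label only. With it, ICB against PBS had 4 of 36 and 5-FU against PBS 12 of 36 called. Counting error was small for the summed collagen share, and it was not compared with the spread for single members.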
